A study of Mus musculus with 12 samples.

Results

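The receptor chains through which the type 2 cytokines IL-4 and IL-13 act, the Janus kinases and 3 signal transducers and activators of transcription (STATs) were followed in mouse skin with atopic dermatitis (AD)-like lesions. They were found by their symbols, 10 genes of the 23282 entries counted: the receptor chains Il4ra, Il13ra1 and Il2rg, the kinases Jak1, Jak2, Jak3 and Tyk2, and the transcription factors Stat3, Stat5b and Stat6. Dorsal skin of wild-type (WT) male C57BL/6J mice, 5 weeks old on arrival, was painted in both groups with 0.5% 2,4-dinitrochlorobenzene (DNCB), a sensitizing hapten, in acetone and olive oil 3 times a week for 6 weeks, and both groups were given distilled water. The 5 AD mice ate normal chow. The 7 HF + AD mice (labelled AD+OB, for obesity) ate a high-fat diet with 60 kcal% fat for 4 weeks before the first DNCB and for 10 weeks in all. There is 1 library per mouse of reads from the 3′ ends of mRNA (QuantSeq). Sham mice and a group given a herbal preparation were not analysed here, so no value below is set against healthy skin.

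IL-4 binds the chain encoded by Il4ra, which then joins either the common gamma chain encoded by Il2rg, the pair found on leukocytes, or the chain encoded by Il13ra1, the pair found on keratinocytes, fibroblasts and macrophages that also answers IL-13. The tails of these chains carry Janus kinases, JAK3 on the common gamma chain, JAK1 on the IL-4 receptor alpha chain, and TYK2 or JAK2 on the IL-13 receptor alpha chain. The kinases phosphorylate STAT6, which moves to the nucleus and drives type 2 genes, whereas STAT3 serves chiefly the IL-6 and oncostatin M receptors and STAT5B the receptors for IL-2 family cytokines, TSLP and growth hormone. In the skin of atopic dermatitis this pathway is known for dampening barrier genes and for itch, and drugs against the IL-4 receptor alpha chain and JAK1 are used to treat the disease.

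Library totals ran from 9746937 to 11688979 counts in the AD group and from 10726845 to 13462434 in the HF + AD group. Genes with a read numbered 13100 to 15063 in AD libraries and 15522 to 16677 in HF + AD libraries, without overlap (exact permutation test, two-sided, p = 0.00126, the smallest possible with 5 and 7 mice). AD mice 1 and 2 had the fewest genes with a read, 13258 and 13100. Libraries of the AD group also resembled each other less, with a median correlation across genes of 0.857, against 0.947 within the HF + AD group. Each AD library had a higher median correlation with the HF + AD libraries (0.848 to 0.919) than with its own group (0.828 to 0.874). The reverse held for each HF + AD library, with 0.865 to 0.896 across groups and 0.943 to 0.954 within its own. Values are in CPM, counts scaled to library size by the TMM method. A count of 0 allows up to 3 counts, which is at most 0.311 CPM for an AD library and 0.281 CPM for an HF + AD library. Keratinocyte genes marked the tissue as skin, with Krt5 at 2234 to 3810 CPM in the AD group and at 4048 to 6649 CPM in the HF + AD group. Of 7 eosinophil and basophil genes listed, Epx and Prg2 had no read in any mouse, and 0 of the 7 could be tested. Ccr3 of that list had 108 reads in AD mouse 1, 13 in HF + AD mouse 5, 1 in HF + AD mouse 2 and none elsewhere. Mcpt8 had 37 reads in AD mouse 1, 3 in AD mouse 5, none in the other AD mice and 2 to 30 in the HF + AD mice.

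The promoters of the members are described first, because they differ widely in CpG content. RefSeq gives 11 promoters for the 10 members (Stat5b has 2), each of 300 bases from 250 before to 50 after the start of transcription, in the build GRCm38.p6. The number of CpG dinucleotides, the sites of DNA methylation, ran from 3 in Il2rg to 50 in 1 of the promoters of Stat5b, against a median of 7 and quartiles of 3 and 20 over 32851 mouse promoters. Il2rg and Jak3, the partners in the leukocyte form of the receptor, held 3 and 9 CpG, Stat6 held 8, and Jak1 and Jak2 held 29 and 44. The promoters of Il2rg, Jak3, Stat6 and Jak2 are printed 5′ to 3′ with each CpG in capitals, Jak2 for contrast with the first 3.
Il2rg, chrX:101268206-101268505, minus strand: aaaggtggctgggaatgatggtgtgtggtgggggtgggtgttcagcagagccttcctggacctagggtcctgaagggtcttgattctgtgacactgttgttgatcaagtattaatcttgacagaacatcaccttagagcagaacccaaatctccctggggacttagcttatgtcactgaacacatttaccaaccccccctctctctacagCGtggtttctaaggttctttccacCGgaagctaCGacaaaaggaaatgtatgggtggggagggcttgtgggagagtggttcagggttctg
Jak3, chr8:71676133-71676432, plus strand: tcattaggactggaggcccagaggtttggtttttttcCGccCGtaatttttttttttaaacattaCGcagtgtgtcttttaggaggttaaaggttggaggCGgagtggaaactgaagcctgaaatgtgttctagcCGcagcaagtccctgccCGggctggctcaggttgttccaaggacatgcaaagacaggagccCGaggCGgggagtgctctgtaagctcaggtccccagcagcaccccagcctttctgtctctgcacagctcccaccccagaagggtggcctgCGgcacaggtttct
Stat6, chr10:127642736-127643035, plus strand: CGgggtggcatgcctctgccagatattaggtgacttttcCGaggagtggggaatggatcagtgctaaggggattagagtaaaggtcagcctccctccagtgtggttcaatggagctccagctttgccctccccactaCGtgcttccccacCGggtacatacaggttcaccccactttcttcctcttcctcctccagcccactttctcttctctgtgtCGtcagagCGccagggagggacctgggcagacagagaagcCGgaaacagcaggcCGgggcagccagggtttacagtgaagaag
Jak2, chr19:29251553-29251852, plus strand: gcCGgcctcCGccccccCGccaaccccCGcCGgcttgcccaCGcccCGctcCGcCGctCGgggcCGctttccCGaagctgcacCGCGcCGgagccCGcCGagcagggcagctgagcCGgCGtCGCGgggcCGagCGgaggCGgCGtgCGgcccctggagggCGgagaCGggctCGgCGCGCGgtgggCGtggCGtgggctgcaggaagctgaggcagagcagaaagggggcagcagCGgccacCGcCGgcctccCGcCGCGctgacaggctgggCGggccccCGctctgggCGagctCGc
In Il2rg the 3 CpG lie toward the 3′ end, whereas in Jak2 they run through the whole stretch. The sequences were also searched on both strands for the palindromic letters that STAT dimers are known to bind, TTCNNNGAA and for the form with 1 more base between the arms, which STAT6 prefers. None of the 11 promoters held either, while 8.3% and 6.95% of all promoters did, and these letters may lie outside the window.

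The members differed widely in level. Because QuantSeq reads the end of each mRNA, counts were not divided by transcript length. In the AD group Stat3 stood highest at 248.7 ± 52.7 CPM (SD, n = 5) and Jak1 second at 121.8 ± 21.8, and the values of these genes did not overlap. Il13ra1 followed at 83.8 ± 22.9, then Stat6 at 61.5 ± 20.8, Jak2 at 54.7 ± 15.5 and Il4ra at 49.2 ± 31.6, all of which overlapped their neighbours in the order. Stat5b at 21.8 ± 10.8 and Tyk2 at 21.3 ± 10.1 were about equal. Il2rg at 3.98 ± 3.46 and Jak3 at 1.25 ± 1.32 stood last, so that the chain and the kinase of the leukocyte form of the receptor were the least abundant members. The order in the HF + AD group differed in the middle, where Stat6 took the third place at 98.8 ± 13.7 CPM (SD, n = 7) above Il13ra1 at 63.4 ± 11.6, and Il4ra and Jak2 changed places within their spread. Spread between mice was larger in the AD group for 8 of the 10 members, by the coefficient of variation. It reached 105.6% for Jak3 and 86.9% for Il2rg in the AD group, against 23.1% and 51.9% in the HF + AD group.

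**Figure D1:**
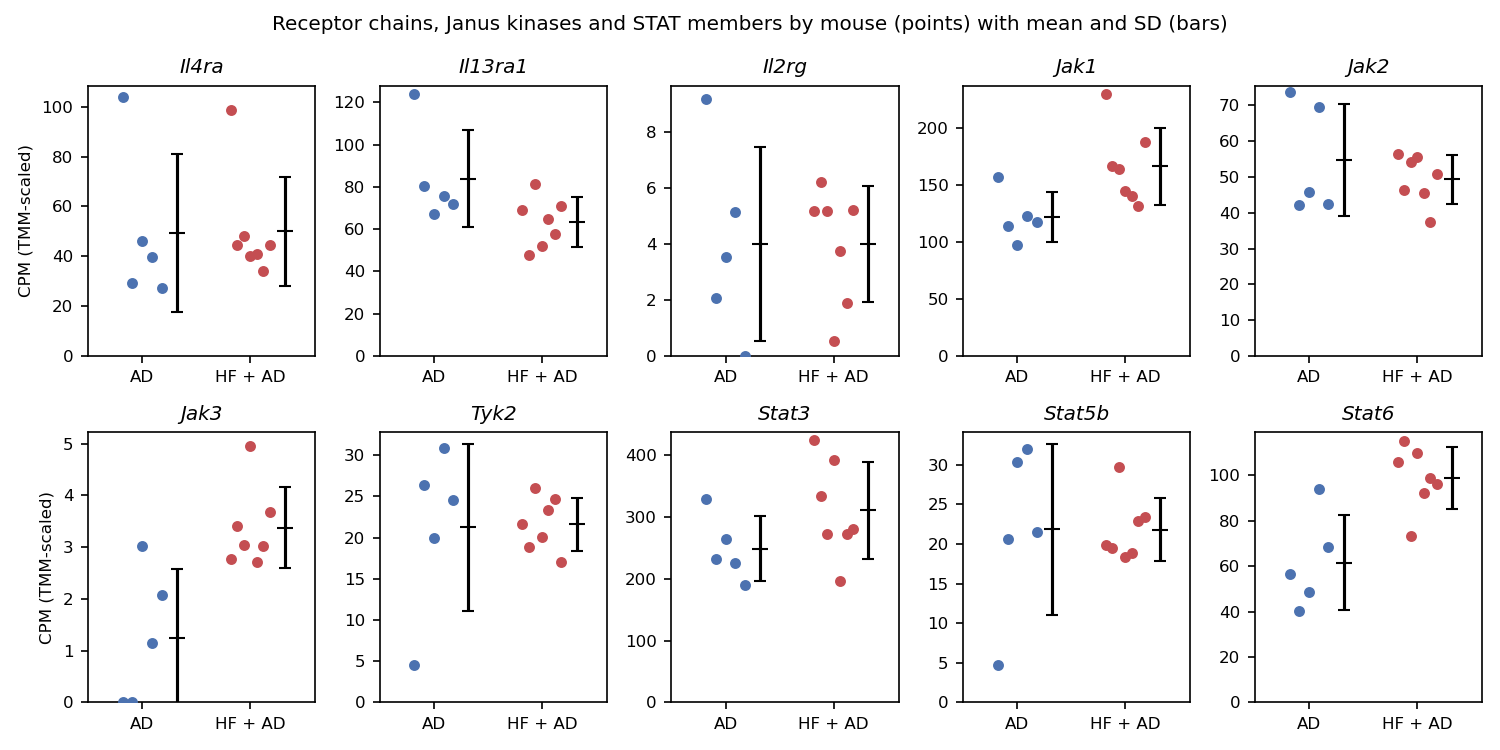
Level of each member in each mouse (points, CPM on TMM-scaled library sizes, linear axes from 0), with the mean and SD of the 5 AD mice and 7 HF + AD mice beside them. Stat6 lies at 73.4 to 115 CPM in the HF + AD group and at 40.2 to 93.8 CPM in the AD group, and every member has overlapping groups.

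The comparison of HF + AD with AD sets DNCB-treated skin of mice on a high-fat diet beside that of mice on chow. No library comes from high-fat mice without DNCB. A change in the lesions therefore cannot be told from a change in skin at large, nor diet from obesity. Stat6, the transcription factor of IL-4 and IL-13, was the 1 member that passed the adjusted threshold over all genes (edgeR's quasi-likelihood test with Benjamini–Hochberg adjustment over 14163 genes, adjusted p under 0.05). It was higher in the HF + AD group, 1.61-fold. That is 1 of 10 members, where 9.2% of all genes tested were called in either direction and 4.43% were called higher, so the share of members called was near the background. At an unadjusted p under 0.05 there were 3 members, Stat6 and Jak1 higher and Il13ra1 lower, where 25.1% of all genes reached it. No member had groups that did not overlap, which 5.46% of genes tested had. Fitted differences ran 6 higher and 4 lower, with a median log2 fold change of 0.02 over the members and 0.02 over all genes. Jak1, Jak3 and Stat6 stand on a list that the study drew from genes higher in its HF + AD mice, so their direction is not independent evidence. The legend of that list gives another number of AD mice than the 5 AD libraries used here. In bulk skin, fewer cells of a type and less RNA per cell cannot be told apart.

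**Figure D2:**
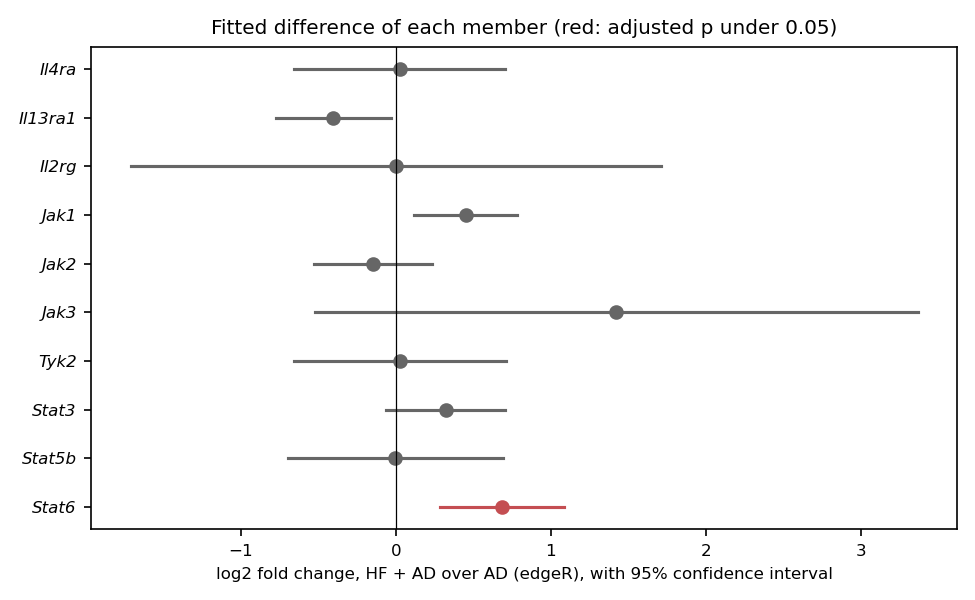
Log2 fold change of HF + AD over AD for each member (points) with its 95% confidence interval (lines) from edgeR, where red marks an adjusted p under 0.05. Stat6 at 0.68 is the 1 red point, the intervals of Jak1 and Il13ra1 also leave out 0, and those of Jak3 and Il2rg are the widest.

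Stat6 (ENSMUSG00000002147, chr10:127642986-127660957 on the plus strand, GENCODE M21 on GRCm38) had 624, 388, 481, 1060 and 754 reads in AD mice 1 to 5, or 56.6, 40.2, 48.6, 93.8 and 68.3 CPM. In the 7 HF + AD mice it lay between 73.4 and 115 CPM with a median of 99.0. The HF + AD values stood above all AD values in 5 of 7 mice, and AD mouse 4 alone reached into their range. The log2 fold change was 0.68 ± 0.19 (SE, 95% confidence interval 0.28 to 1.08), with an adjusted p of 0.0334 by edgeR. The two-sided exact permutation test of mean log2(CPM + 1) gave p = 0.00379, unadjusted. The call was close to the threshold. With 1 mouse left out, the edgeR adjusted p rose past 0.05 on removal of AD mouse 1 (0.0517), 2 (0.0763) or 3 (0.0837), or of HF + AD mouse 1 (0.0650), 2 (0.0823), 4 (0.0652), 6 (0.0544) or 7 (0.0582), while the log2 fold change stayed between 0.57 and 0.89. Without AD mice 1 and 2 together, a fit added after the data were seen, it was 0.49 with an adjusted p of 0.128.

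Stat6 shares its 3′ end with a neighbour. The last 40 bases of Stat6 (chr10:127660918-127660957) are also the last 40 exonic bases of Nab2, a repressor of EGR transcription factors, which is transcribed toward Stat6 from the opposite strand. This was looked at after the values were seen. Nab2 had 630, 452, 452, 998 and 806 reads in AD mice 1 to 5 and between 895 and 1516 in the HF + AD mice. These numbers follow those of Stat6 mouse by mouse. The ratio of Stat6 to Nab2 reads lay between 0.858 and 1.11 with a median of 0.997, and their log2 CPM correlated with r = 0.973 across 12 libraries that share both groups and depth. Among 136 pairs of genes that meet tail to tail, with 1 to 100 shared exonic bases and a mean count of at least 20, the median r was 0.446, and 3 pairs (2.21%), Stat6 and Nab2 among them, stayed within 1.2-fold of each other in every library. Nab2 was called higher as well, with a log2 fold change of 0.66 ± 0.18 (SE, edgeR adjusted p = 0.0320). Whether counting used the strand is not given in the sources used here, and whether the genes share reads was not tested, so the values of Stat6 are uncertain in this respect.

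**Figure D3:**
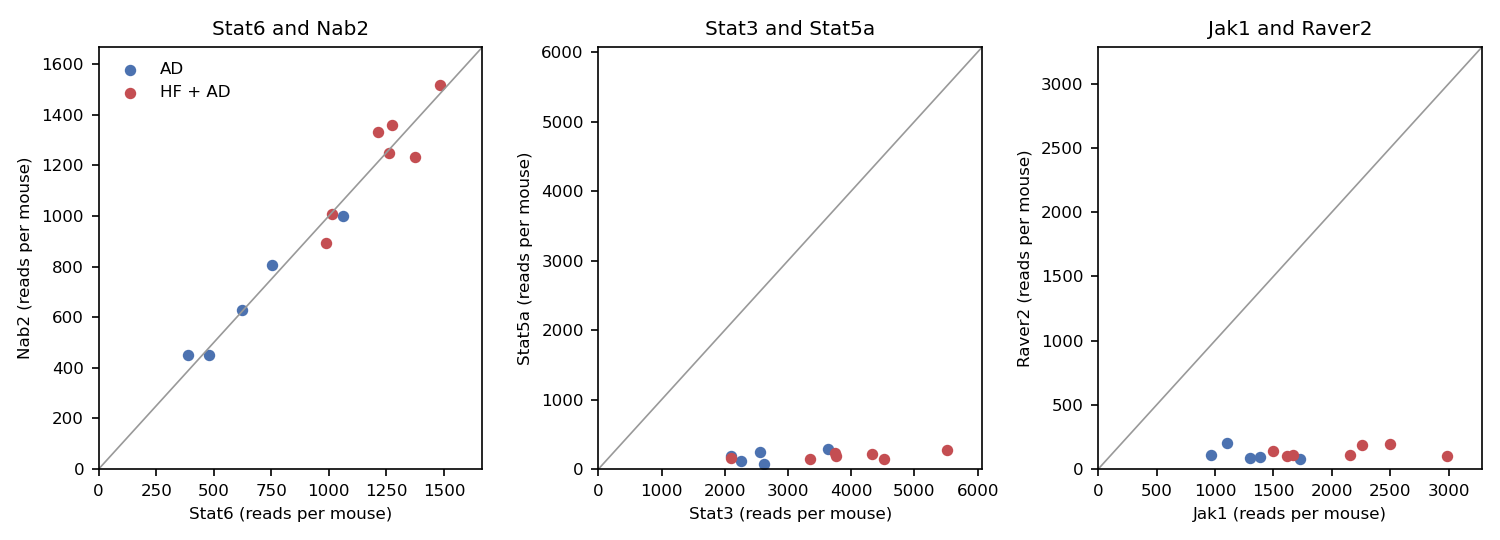
Reads per mouse on Stat6, Stat3 and Jak1 (horizontal axes) against reads on the gene that meets each at its 3′ end (vertical axes), AD mice in blue and HF + AD mice in red, with a grey line of equal counts. Stat6 and Nab2 lie along the line in all 12 mice, whereas Stat5a stays between 79 and 282 reads and Raver2 between 78 and 206.

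Of the other members, Stat3 shares 72 exonic bases with Stat5a and Jak1 shares 4 with Raver2, also tail to tail, but here the counts parted. Stat3 had 10.4 to 33.1 times the reads of Stat5a, and Jak1 had 5.34 to 28.7 times those of Raver2. Jak3 shares 355 of the 551 stretches of 50 bases in its last 600 with Insl3, a relaxin-family hormone gene with no read in any mouse. The 3′ ends of Il2rg and Tyk2 overlap the genes Gm20489 and 1700084C06Rik, not analysed here. The 3′ ends of Il4ra, Il13ra1, Jak2 and Stat5b overlap no other gene, and Stat5b shares no stretch of 50 bases with Stat5a there, so reads at those ends point to 1 gene each.

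STAT3, which acts downstream of IL-6 family cytokines in wounded and inflamed epidermis, is encoded by the most abundant member (Stat3, chr11:100885098-100939540, minus strand). It was at 330.1, 233.0, 264.5, 226.5 and 189.7 CPM in AD mice 1 to 5 and between 197.1 and 425.5 CPM, median 281.6, in the HF + AD mice. The groups overlapped over most of their range, and HF + AD mice 1, 2 and 4 stood above every AD mouse. The log2 fold change was 0.32 ± 0.18 (SE, edgeR adjusted p = 0.289), and the exact permutation test gave p = 0.140. Stat5b (chr11:100780731-100850724, minus strand) differed least of the STAT members, with a log2 fold change of -0.00 ± 0.33 (95% confidence interval -0.70 to 0.69, edgeR adjusted p = 0.998). Its AD mean rested on a wide spread. AD mouse 1 had 52 reads (4.72 CPM), while the other AD mice stood between 20.6 and 31.9 CPM and the HF + AD mice between 18.4 and 29.7.

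JAK1, the kinase that both forms of the IL-4 receptor use, had the smallest p of the kinases by edgeR (Jak1, chr4:101152367-101265282, minus strand). Jak1 stood at 157.0, 114.1, 97.7, 122.9 and 117.4 CPM in AD mice 1 to 5. In the HF + AD mice it lay between 131.9 and 230.2 CPM with a median of 163.7. HF + AD mice were above all AD mice in 4 of 7 cases, and all 7 were above every AD mouse other than AD mouse 1. The log2 fold change was 0.45 ± 0.16 (SE, 95% confidence interval 0.12 to 0.78, edgeR adjusted p = 0.0822), short of the threshold over all genes. The exact permutation test gave p = 0.0177, unadjusted, and its p stayed between 0.00606 and 0.0485 under all 16 alternatives tried. Without AD mouse 1 the edgeR adjusted p was 0.0338, the 1 value under 0.05 in 23 alternative fits. Leaving out HF + AD mouse 1 gave the highest, 0.169, with a log2 fold change of 0.36.

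Jak3, the kinase of the common gamma chain (chr8:71676296-71690575, plus strand), was the rarest member. No read was counted in AD mice 1 and 2, and 30, 13 and 23 reads in AD mice 3, 4 and 5, while every HF + AD mouse had between 29 and 57 reads. The counts overlapped only through AD mouse 3, whose 3.03 CPM fell inside the HF + AD range of 2.72 to 4.96 CPM. For Jak3 the exact permutation p was 0.00505, unadjusted, and 0.00303 to 0.0333 under 16 alternatives drawn from the same mice. The share of all genes that reach such an exact p was not computed. By edgeR the log2 fold change of 1.42 ± 0.92 (SE, 95% confidence interval -0.52 to 3.37) had an adjusted p of 0.366. The size of the Jak3 difference moved with the setting. Without AD mice 1 and 2 the edgeR log2 fold change was 0.69, and the difference in mean log2(CPM + 1) was 0.53 (exact permutation p = 0.0333) against 1.16 with all mice. Without AD mouse 3 the log2 fold change was 2.02, with limma-trend 2.17 and with the replicate block 2.56. The mice without a Jak3 read are those with the fewest genes detected, although AD mouse 1 has the highest total of its group, 11688979 counts. The part of gene detection in this difference was not tested. Jak2 and Tyk2, the kinases that can sit on the IL-13 receptor alpha chain, gave no call. Jak2 (chr19:29251828-29313080, plus strand) was at 73.6, 42.2, 45.8, 69.6 and 42.5 CPM in AD mice 1 to 5 and between 37.3 and 56.3 CPM in the HF + AD mice, with a log2 fold change of -0.15 ± 0.18 (SE, edgeR adjusted p = 0.668). Tyk2 (chr9:21104068-21131243, minus strand) averaged 21.3 ± 10.1 CPM in the AD group and 21.6 ± 3.23 CPM in the HF + AD group, and AD mouse 1 had the lowest value, 50 reads or 4.54 CPM.

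The make-up of the kinase reads was compared next, which does not depend on how libraries are scaled. This measure was added after the files were seen. Jak1 took 66.8%, 62.5%, 58.7%, 54.7% and 62.9% of the reads on the 4 kinases in AD mice 1 to 5, and between 64.3% and 74.0%, median 67.0%, in the HF + AD mice. Its mean share was 61.1% ± 4.57 (SD) for AD mice and 68.7% ± 3.69 for HF + AD mice (exact permutation test, two-sided, p = 0.0114). Jak2 took 31.3%, 23.1%, 27.5%, 31.0% and 22.8% in AD mice 1 to 5 and 18.1% to 24.7%, median 19.7%, in the HF + AD mice. Its mean share was 27.1% ± 4.12 in the AD group and 20.6% ± 2.23 in the HF + AD group (exact permutation test, p = 0.00631). The shares of a family add up to a whole, so these results are not separate. Both p-values are unadjusted among 10 such shares, and both stayed under 0.05 in all 13 alternatives, which left out mice. Tyk2 held 11.1% ± 5.19 and 9.21% ± 2.22 (exact permutation p = 0.415), and Jak3 0.690% ± 0.782 and 1.43% ± 0.399 (exact permutation p = 0.0619).

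**Figure D4:**
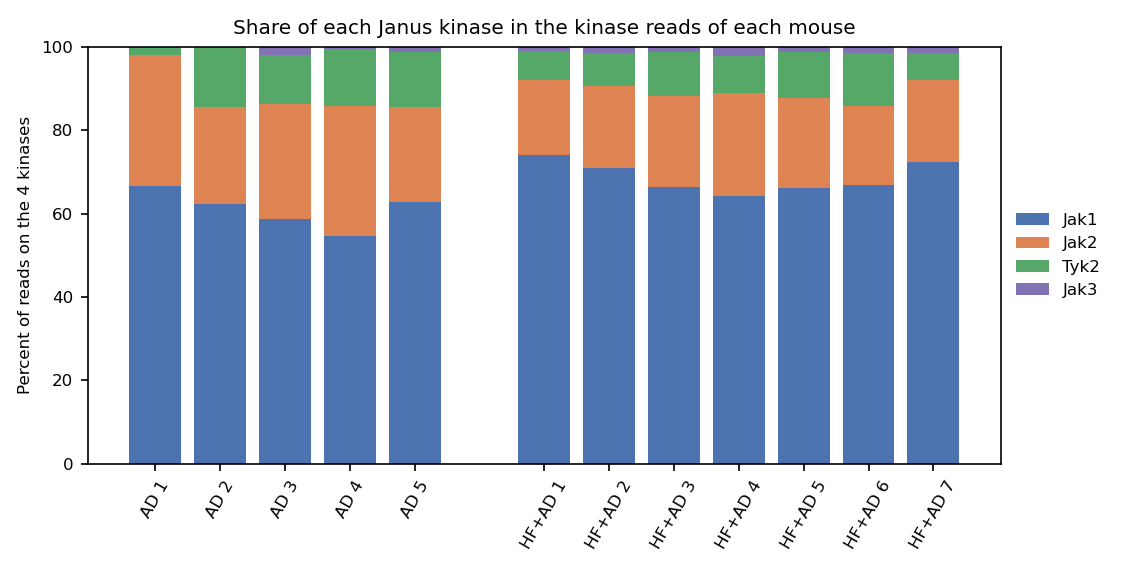
Percent of the reads on Jak1, Jak2, Tyk2 and Jak3 that fell on each kinase, with 1 stacked bar per mouse (5 AD mice left, 7 HF + AD mice right). Jak1 takes 54.7% to 66.8% in the AD mice and 64.3% to 74.0% in the HF + AD mice, while Jak2 takes 22.8% to 31.3% and 18.1% to 24.7%.

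Among the receptor chains, Il13ra1, which makes the receptor form of keratinocytes and fibroblasts, had a lower mean in the HF + AD group (chrX:36112110-36171259, plus strand). It was at 124.0, 80.3, 67.2, 75.8 and 71.97 CPM in AD mice 1 to 5 and between 47.8 and 81.2 CPM, median 64.8, in the HF + AD mice. AD mouse 1 lay far above the rest, and 4 of 7 HF + AD mice were below every AD mouse. The log2 fold change was -0.40 ± 0.18 (SE, 95% confidence interval -0.78 to -0.03), with an unadjusted p of 0.0355 and an adjusted p of 0.162 by edgeR. The exact permutation p was 0.0480, and it was under 0.05 in 4 of 16 alternatives. Without AD mouse 1 the log2 fold change was -0.21 (edgeR adjusted p = 0.419, exact permutation p = 0.133), and without AD mice 1 and 2 it was -0.18. Il4ra, the chain shared by both receptor forms (chr7:125552120-125579474, plus strand), had 1 high mouse in each group, AD mouse 1 at 104.0 CPM and HF + AD mouse 1 at 98.7 CPM. The other AD mice stood between 27.2 and 46.2 CPM and the other HF + AD mice between 33.9 and 48.2 CPM. Its log2 fold change was 0.02 ± 0.32 (SE, 95% confidence interval -0.66 to 0.70, edgeR adjusted p = 0.977), and the direction turned when AD mouse 2, 4 or 5, or else HF + AD mouse 1, was left out. Il2rg, the common gamma chain (chrX:101264378-101268255, minus strand), had 101, 20, 35, 58 and 0 reads in AD mice 1 to 5 and between 6 and 80 in the HF + AD mice, with a log2 fold change of -0.00 ± 0.81 (SE). Its 95% confidence interval, -1.71 to 1.71, leaves a difference of either sign possible. Within the reads on the 3 chains, Il4ra held 34.0% ± 7.65 in the AD group and 41.7% ± 7.73 in the HF + AD group, and Il13ra1 63.4% ± 8.92 and 54.98% ± 7.94 (exact permutation p = 0.119 for both).

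AD mouse 1 stood apart over the members. It had the highest value of its group for 6 of them (Il4ra, Il13ra1, Il2rg, Jak1, Jak2 and Stat3) and the lowest for Tyk2 and Stat5b, and it shared the lowest value, 0 reads, for Jak3. It also had 2405 CPM of S100a8, a neutrophil gene that inflamed keratinocytes express too, against 95.4 to 204.0 CPM in the other AD mice, and 523.9 CPM of Fabp4, a gene of adipocytes and capillaries, against 75.5 to 261.7 CPM. HF + AD mouse 1 had the highest value of its group for Il4ra, Jak1, Jak2 and Stat3.

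Markers of cell types were compared by the same edgeR fit. The counts below stand beside all genes tested, of which 9.2% were called and 25.1% reached an unadjusted p under 0.05. All 10 leukocyte genes had fitted values above 0 and 0 passed the adjusted threshold (1 at an unadjusted p under 0.05), with a summed level of 114.1 to 224.4 CPM in the AD group and 146.6 to 275.4 CPM in the HF + AD group. T cell genes, whose cells carry the gamma chain and Jak3, summed to 9.32 to 34.6 CPM and 11.1 to 22.6 CPM, with 4 of the 8 tested higher and 4 lower and 0 called (1 lower at an unadjusted p under 0.05). Macrophage and dendritic cell genes gave 9 of 12 higher and 0 called (4 higher at an unadjusted p under 0.05), with a median log2 fold change of 0.94 and sums of 95.5 to 430.8 CPM and 157.2 to 538.5 CPM. Among keratinocyte genes, 6 of 10 were higher and 4 lower with a median log2 fold change of 0.06, and Krt5, Krt14 and Krt15 were called higher. Their list, in which these abundant keratins weigh most, summed to 3913 to 6999 CPM in the AD group and 6301 to 11139 CPM in the HF + AD group. Of the skeletal muscle genes 9 of 10 were lower, 2 of them called and 6 at an unadjusted p under 0.05, with sums of 1258 to 2668 CPM and 787.1 to 2038 CPM. Hair shaft genes gave 10 of 11 higher, 3 of them called and 6 at an unadjusted p under 0.05, with sums of 3052 to 5530 CPM and 4269.5 to 7608 CPM. Endothelial genes gave 7 of 10 higher and 3 lower, with 2 called, both higher (3 higher at an unadjusted p under 0.05), a median log2 fold change of 0.17 and sums of 77.7 to 157.0 CPM and 88.3 to 179.8 CPM. Neutrophil genes gave 5 of 7 higher and 2 lower, with 1 called, higher (2 higher and 2 lower at an unadjusted p under 0.05), and a median log2 fold change of 1.34, but sums of 232.3 to 3762 CPM in the AD group and 122.6 to 779.8 CPM in the HF + AD group. Adipocyte genes gave 4 of 9 higher and 5 lower, with 1 called, higher, and a median of -0.21. Sebocyte genes gave 4 of 10 higher and 6 lower, with 1 called in each direction (2 higher and 3 lower at an unadjusted p under 0.05) and a median of -0.025, and genes of hyperproliferative epidermis 3 of 8 higher and 5 lower, with 1 called, lower (2 lower at an unadjusted p under 0.05), and a median of -0.16. Fibroblast and mast cell genes gave 0 called by edgeR, with 1 in each list higher at an unadjusted p under 0.05. The part of cell make-up in the differences of Stat6, Jak1, Jak3 and Il13ra1 was not tested.

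The rest of the pathway was read from lists of 88 genes, of which 72 were tested. With edgeR adjusted p under 0.05, 2 were higher and 4 lower, against 9.2% of all genes, and the median log2 fold change was 0.10. The ligands themselves were almost out of reach. Il4 had no read in the AD mice and at most 2 reads in 2 HF + AD mice, and Il31, an itch cytokine, had no read in any mouse, so that at this depth neither could be compared. Il13 had no read in the AD mice and 3, 2, 11, 7, 9, 0 and 2 reads in HF + AD mice 1 to 7. HF + AD mice 3, 4 and 5, at 0.798, 0.609 and 0.843 CPM, stood above the 0.311 CPM that a count of 0 allows in an AD library, and the other 4 did not. Il13 was below the filter of the edgeR fit, and an exact permutation test of mean log2(CPM + 1), two-sided and added after its values were seen, gave p = 0.0341, unadjusted. That p lay between 0.00649 and 0.0667 under 16 alternatives and was past 0.05 in 1, without AD mice 1 and 2. The groups also differ in the number of genes detected, and its part in the Il13 counts was not tested. Of 14 ligands 4 could be tested, and Tslp, the keratinocyte alarmin that precedes type 2 responses, was called lower. It stood at 71.8, 43.5, 40.4, 19.6 and 9.87 CPM in AD mice 1 to 5 and between 4.27 and 28.8 CPM in the HF + AD mice, with overlap, and its log2 fold change was -1.53 ± 0.46 (SE, edgeR adjusted p = 0.0449). Tslp overlaps 4930455D15Rik, a gene on the other strand that had no read in any mouse. Osm, which encodes oncostatin M, gave the largest fitted difference of the lists (log2 fold change 4.11 ± 1.35, SE, edgeR adjusted p = 0.0653). It is named after its values were seen, and it rests on 10 reads in AD mouse 4 and 0 in the other AD mice against 1 to 96 in the HF + AD mice.

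**Figure D5:**
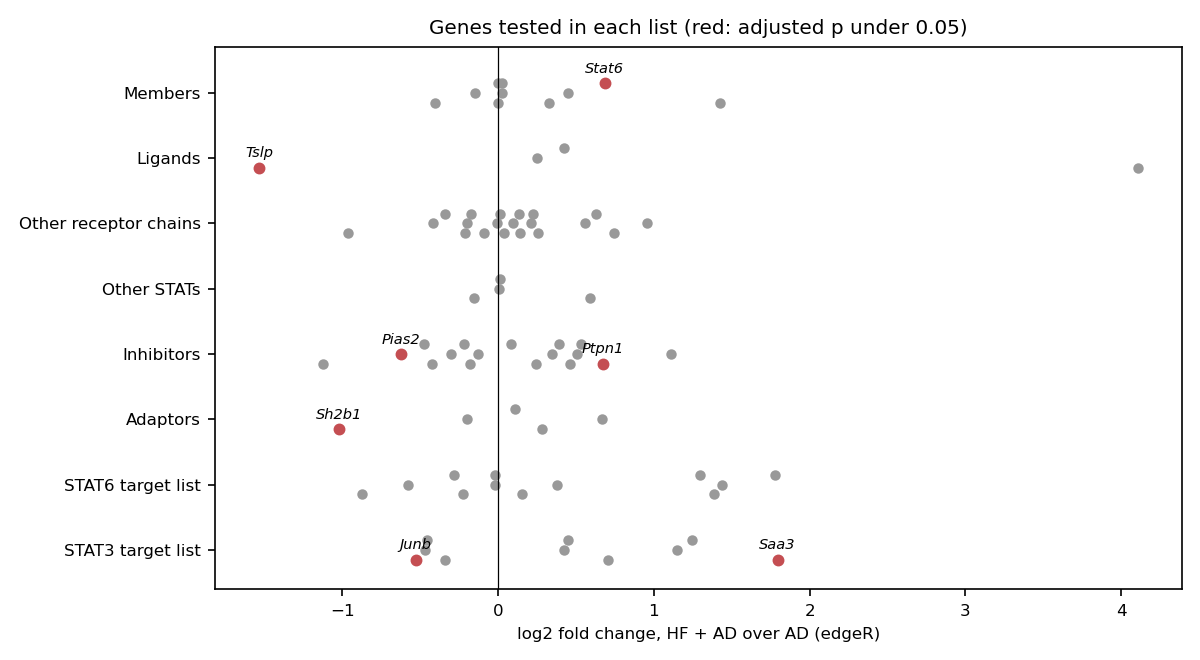
Log2 fold change of HF + AD over AD by edgeR (horizontal axis) for each gene tested in the members and in 7 further lists (rows), with an adjusted p under 0.05 in red and named. Red points are 1 member and 6 of 72 other genes, of which Tslp, Pias2, Sh2b1 and Junb lie below 0 and Ptpn1 and Saa3 above.

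The adaptor Sh2b1, which binds JAK2 and is known for strengthening leptin and insulin signals, had the smallest edgeR p of the pathway genes tested. Sh2b1 stood at 168.8, 265.2, 256.5, 198.7 and 235.6 CPM in AD mice 1 to 5 and between 65.1 and 143.5 CPM, median 128.2, in the HF + AD mice. All 7 HF + AD mice were below all 5 AD mice, and 5.46% of all genes tested had groups without overlap in either direction. The log2 fold change was -1.02 ± 0.20 (SE, edgeR adjusted p = 0.00812), and the adjusted p was under 0.05 in all 23 alternative fits, between 8.73e-05 and 0.0331. Its 3′ end overlaps no other gene.

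Among 17 inhibitors of the pathway, 9 had fitted values above 0 and 8 below, with a median log2 fold change of 0.08, and 1 was called higher and 1 lower. Over all genes tested, 9.2% were called in either direction and 25.1% reached an unadjusted p under 0.05 by edgeR. Ptpn1, a phosphatase that acts on JAK2, TYK2 and the insulin receptor, was at 121.3, 68.2, 72.1, 97.8 and 120.2 CPM in AD mice 1 to 5 and between 113.3 and 227.4 CPM in the HF + AD mice. Of these 6 of 7 were above every AD mouse, and the log2 fold change was 0.67 ± 0.19 (SE, edgeR adjusted p = 0.0344). Pias2, a SUMO ligase of the protein inhibitor of activated STAT family, lay at 83.9 to 145.6 CPM in the AD group and 50.6 to 94.2 CPM in the HF + AD group, with a log2 fold change of -0.63 ± 0.17 (SE, edgeR adjusted p = 0.0311). Of the 8 SOCS family genes, among them feedback inhibitors that cytokine signals are known to induce, 0 passed the threshold and none reached an unadjusted p under 0.05 by edgeR, with 6 fitted values above 0 and 2 below (Socs4 at -1.12 and Socs6 at -0.22). The log2 fold changes were 1.11 for Socs1, 0.46 for Socs3 and 0.53 for Cish, with edgeR adjusted p of 0.519, 0.242 and 0.288. Socs1 had 0, 0, 2, 54 and 79 reads in AD mice 1 to 5 and 46 to 96 in the HF + AD mice, so AD mice 1 and 2 lacked it as they lacked Jak3. The fitted value of Socs1 moved to 0.37 without AD mice 1 and 2, to 1.74 with voom weights, to 2.06 without AD mouse 5, to 2.68 with limma-trend and to 3.50 with the replicate block. That of Socs3 was 0.71 without AD mouse 2 and 0.75 without AD mice 1 and 2, and that of Cish ran from 0.35 when HF + AD mouse 1 was left out to 0.80 when AD mouse 1 was.

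The counts that follow stand beside all genes tested, of which 9.2% were called and 25.1% reached an unadjusted p under 0.05 by edgeR. None of the 20 other receptor chains tested passed, with 1 at an unadjusted p under 0.05. None of the 4 other STAT genes passed, and none reached an unadjusted p under 0.05. Stat2, a STAT of the type I interferon response, stood at a log2 fold change of 0.01 ± 0.23 (SE), and Stat5a, the close relative of Stat5b, at -0.15 ± 0.28. Of 12 tested genes known as targets of STAT6, 6 were higher and 6 lower and 0 were called by edgeR, none of them at an unadjusted p under 0.05 either, with a median log2 fold change of 0.07. Of 10 targets of STAT3, Saa3, an acute-phase protein, was called higher and Junb, an AP-1 subunit, lower. At an unadjusted p under 0.05 there were 3 higher and 2 lower, where 25.1% of all genes reached it, and the median was 0.44. Saa3 ran from 17.1 to 64.5 CPM in the AD group and from 21.2 to 228.6 CPM in the HF + AD group (log2 fold change 1.79 ± 0.55, SE, edgeR adjusted p = 0.0485). Junb ran from 194.2 to 318.6 CPM and from 145.7 to 216.8 CPM (log2 fold change -0.53 ± 0.14, SE, edgeR adjusted p = 0.0269), and its last exon overlaps that of Prdx2 on the other strand.

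With 1 mouse left out, 5 of these 6 calls were lost at least once. Ptpn1 was lost without any of AD mice 2, 3 and 4 and HF + AD mice 1, 2, 4 and 7 (edgeR adjusted p 0.0523 to 0.0827), and Pias2 without any of AD mice 1, 2, 3 and 4 and HF + AD mice 1 and 4 (0.0511 to 0.0661). Junb was lost without any of AD mice 2, 4 and 5 and HF + AD mice 1 and 4 (edgeR adjusted p 0.0524 to 0.0679). Tslp was lost without any of AD mice 1, 2 and 3 and HF + AD mice 1, 2, 3, 4, 6 and 7 (0.0610 to 0.113), and Saa3 without any of AD mice 2, 3, 4 and 5 and HF + AD mice 1, 2, 3 and 7 (0.0749 to 0.105). Sh2b1 alone of the 6 remained called whichever mouse was left out. Without AD mice 1 and 2 together, which had the highest Tslp values, Tslp was at a log2 fold change of -0.86 (edgeR adjusted p = 0.269). In that fit Ptpn1 was at 0.66 (edgeR adjusted p = 0.0667), Pias2 at -0.51 (0.110), Junb at -0.50 (0.0810) and Saa3 at 2.22 (0.0527), none of which was still called, and Sh2b1 at -1.05 (0.0236) was.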

How the data were processed

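The deposited values are raw read counts by gene symbol, which the authors had not normalized, with 1 library per mouse, from QuantSeq 3′ mRNA libraries sequenced on an Illumina NextSeq instrument. The submitters' processing notes name Bowtie2, bedtools and the build mm10, with no versions. The annotation, the use of strand and the removal of duplicate reads are not given in the sources used here. No molecular identifiers are described, so limits cover counting error only.

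Counts of 12 libraries were fitted with edgeR 4.0.16 in R 4.3.3 (TMM, filterByExpr, quasi-likelihood, group as the only term), and p-values were adjusted over all 14163 genes tested. Of the entries, 35 symbols are listed more than once, and each was kept on its own. Single genes and shares were compared by two-sided exact permutation over every split of 12 mice into 5 and 7, genes on mean log2(CPM + 1) with a pseudocount of 1. The fit was tried on simulated counts with the same dispersion for all genes and both groups, which leaves out the larger spread of the AD libraries. The permutation code was checked on a constructed case with fully separated groups. Alternatives used DESeq2 1.42.0, limma 3.58.1, other scalings and filters, a pseudocount of 0.1, ranks and left-out mice. Tables and figures were made with Python 3.11.15, pandas 2.3.3, NumPy 2.4.6, SciPy 1.17.1 and matplotlib 3.10.9. Positions are from GENCODE M21 on GRCm38.

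The members and the lists were chosen with earlier results of these data known. Genes named beside the members are Il4, Il13, Stat5a, Socs1, Socs3 and Cish, up to 4 called genes and the 2 most abundant genes of each pathway list, and the 2 most abundant of each marker list, of which the text gives those it needs. Another gene named by the rule is counted in its list but not reported here. Nab2, Raver2, Insl3, Il31, Epx, Prg2, Krt15, Osm, Prdx2, Socs4, Socs6 and 4930455D15Rik are outside the rule, chosen once their values had been seen. Protein sequences were not used here.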

Additional observations from a re-analysis of the deposited data

Results flagged for a closer look

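Each member was looked at in each group for a sample whose gap to the nearest of the others was large against the range of the group (Dixon's ratio of the gap to the range, at its 95% critical value). Of 20 groups tested 3 stood out, and chance gives about 1 in 20. Il4ra in HF + AD mouse 1 was the highest of its group, with a log2(CPM + 1) of 6.64 (98.7 CPM) and a ratio of 0.672. Tyk2 in AD mouse 1 was the lowest of its group at 2.47 (4.54 CPM, ratio 0.759), and Stat5b in the same mouse was also the lowest at 2.52 (4.72 CPM, ratio 0.759).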

How the results depend on the processing

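Stat6 kept its direction in all 23 alternative fits and passed the adjusted threshold in 11, and Jak1, Il13ra1, Jak2, Jak3 and Stat3 also kept theirs in every fit that gave a value. With 1 mouse left out, the number of members called lay between 0 and 1, of pathway genes between 1 and 7 and of all genes between 639 and 1461. Sample quality weights (limma voom) gave 0 members, 2 pathway genes and 766 genes in all. The two-group test on log2(CPM + 1) gave 0 members and 1 pathway gene. Without AD mice 1 and 2, chosen after seeing the data as the AD libraries with the fewest genes detected, 0 members were called. The replicate numbers do not pair the mice (correlations of same-numbered mice -0.08 to 0.04, none of them best with its own number), and the replicate block left 0 members, 1 pathway gene and 192 genes. The cause of these losses was not tested. Library totals alone made 59.1% of calls higher, against 48.1%. The median log2 fold change of all genes, 0.02, was 0.12 with no filter, 0.15 with limma-trend, 0.12 with voom weights, 0.11 with the two-group test and 0.14 with the block. With at least 10 counts in every mouse it fell below 0, to -0.017.

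Members near 0 changed sign, and so did 3 other pathway genes. The log2 fold change of Il2rg was 0.056 with library totals alone, 0.017 with no filter, 0.54 with limma-trend, 1.36 with voom weights, 0.20 with the two-group test, 0.51 with the block and 0.47 without AD mice 1 and 2. That of Stat5b was 0.029 with library totals alone, 0.0023 with no filter, 0.0093 with at least 10 counts in every mouse, 0.23 with limma-trend, 0.20 with the two-group test and 0.14 with the block. Tyk2 was at -0.11 with voom weights and -0.22 without AD mice 1 and 2. Stat2 was at -0.066 with the block. With 1 mouse left out, the fitted values ran from -0.23 to 0.50 for Il4ra, -0.31 to 0.58 for Il2rg, -0.23 to 0.20 for Tyk2, -0.26 to 0.18 for Stat5b, -0.11 to 0.15 for Stat2, -0.33 to 0.042 for Stat5a and -0.029 to 0.50 for Il6st. Differences in mean log2(CPM + 1) ran from -0.053 to 0.43 for Il4ra, -0.28 to 0.55 for Il2rg, -0.20 to 0.0017 for Jak2, -0.22 to 0.41 for Tyk2 and -0.24 to 0.39 for Stat5b. With ranks the differences were -1.20 for Tyk2 and -1.54 for Stat5b, and without AD mice 1 and 2 they were -0.20 and -0.34. The Stat3 share without those mice was 1.68 percentage points higher in the HF + AD group. Il2rg and Jak3 had 0 to 101 reads per mouse at this depth, and their fitted intervals are wide.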
